A study of Bos taurus with 9 samples.

Results

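The ETS factors described here are 9 genes of 1 family of transcription factors, *EHF*, *ELF3*, *ELF5*, *ETS1*, *ETS2*, *ELF1*, *ELF2*, *ELF4* and *GABPA*. They were taken by gene symbol as the epithelial and the broadly expressed members of the family, and all 9 were among the 21512 genes listed. *EHF* was chosen by its measured values, 0 in every *TEAD4* knockout (KO) library, so its difference between genotypes is given as a description, with no test. The transcriptomes are those of individual bovine blastocysts on day 8 after in vitro fertilization (D8), 5 wild type (WT) and 4 *TEAD4* KO (*TEAD4*-/-), with 1 library per embryo. All embryos came from slaughterhouse oocytes fertilized with sperm of the same bull and were cultured in synthetic oviduct fluid. In the study's design, WT embryos are those injected with *Cas9* mRNA alone. KO embryos were injected with *Cas9* mRNA and a guide RNA against *TEAD4*, and carried only alleles with frame-disrupting indels, which differ between embryos. The column names WT_1 to WT_5 for the WT and TE_1 to TE_4 for the KO embryos are kept here, and values are given in that order. Each library holds the trophectoderm (TE) and the inner cell mass (ICM) together, so that fewer cells of a type and less RNA per cell cannot be told apart.

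ETS factors share a DNA-binding domain that recognizes a GGAA core. *EHF*, *ELF3* and *ELF5* form an epithelial branch of the family that acts in surface and glandular epithelia, and *ELF5* is known in the mouse for maintaining trophoblast stem cells. *ELF1*, *ELF2* and *ELF4* are related factors of broad expression. *ETS1* and *ETS2* are activated through phosphorylation by ERK kinases, and *ETS2* has been linked to the interferon tau genes of the ruminant trophoblast. *GABPA* binds DNA as a partner of the GABPB proteins and is known for driving nuclear genes of the mitochondrion.

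Values are transcript abundances scaled to a common total (TPM), which correct for transcript length and sum to 1000000 in each library. Read numbers cannot be read back from TPM. The paper gives a range of reads per sample over the series, but does not tie a number to each library. The number of reads behind each value, such as those near 0, is therefore not known here. *TEAD4* itself was between 18.0 and 54.3 TPM in WT and between 12.5 and 42.8 TPM in KO libraries, and a TPM value does not show an indel. The number of genes above 0 TPM was between 14807 and 16678 in WT and between 14776 and 15375 in KO libraries, a mean difference of −892 genes (exact permutation test, two-sided, p = 0.0635, where 0.0159 is the smallest p possible). Counted above 0.1 TPM, the difference was −486 genes (exact permutation test, two-sided, p = 0.175). For the count above 0 TPM, leaving out single embryos gave p between 0.107 and 0.143 by the same exact permutation test, except for WT_1. Without WT_1 the difference was −1193 genes and p by that test was 0.0286, the smallest possible with 4 against 4. Of 8 TE markers, 7 were above 1 TPM in every library, as were 3 of 5 ICM markers and 2 of 5 hypoblast markers. Markers of cumulus cells summed to between 15.8 and 28.4 TPM in WT and between 3.12 and 27.2 TPM in KO, with *FSHR*, the receptor of follicle-stimulating hormone, the only 1 of the 9 above 1 TPM in every library. Markers of blood cells summed to between 1.49 and 3.32 TPM, and *PTPRC*, which marks leukocytes, was at 0 in every library.

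*EHF*, an ETS factor of epithelia, was found in every WT embryo and was listed at 0 in every KO embryo. It was at 0.414, 0.0227, 3.85, 5.61 and 0.368 TPM in the WT embryos, against 0 TPM in TE_1, TE_2, TE_3 and TE_4. WT_3 and WT_4 were high and together held 92.2% of the *EHF* signal of the WT embryos, whereas WT_2 was close to 0. The value of WT_2 was above only 2.15% of the values above 0 in that library. The median of *EHF* over the 9 libraries, 0.0227 TPM, was under the threshold of 0.1 TPM for testing, and no fold is given against a group at 0. Housekeeping genes such as *ACTB*, which encodes beta-actin, and *GAPDH* were high in every library, at 5007 TPM or more for *ACTB* and at 982 TPM or more for *GAPDH*. Levels this high do not show how well a gene as low as *EHF* is detected. The difference between KO and WT on the log2(TPM + 1) scale was 0.062 for *ACTB* and −0.69 for *GAPDH* (adjusted p = 0.992 and 0.827 from limma).

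**Figure D1:**
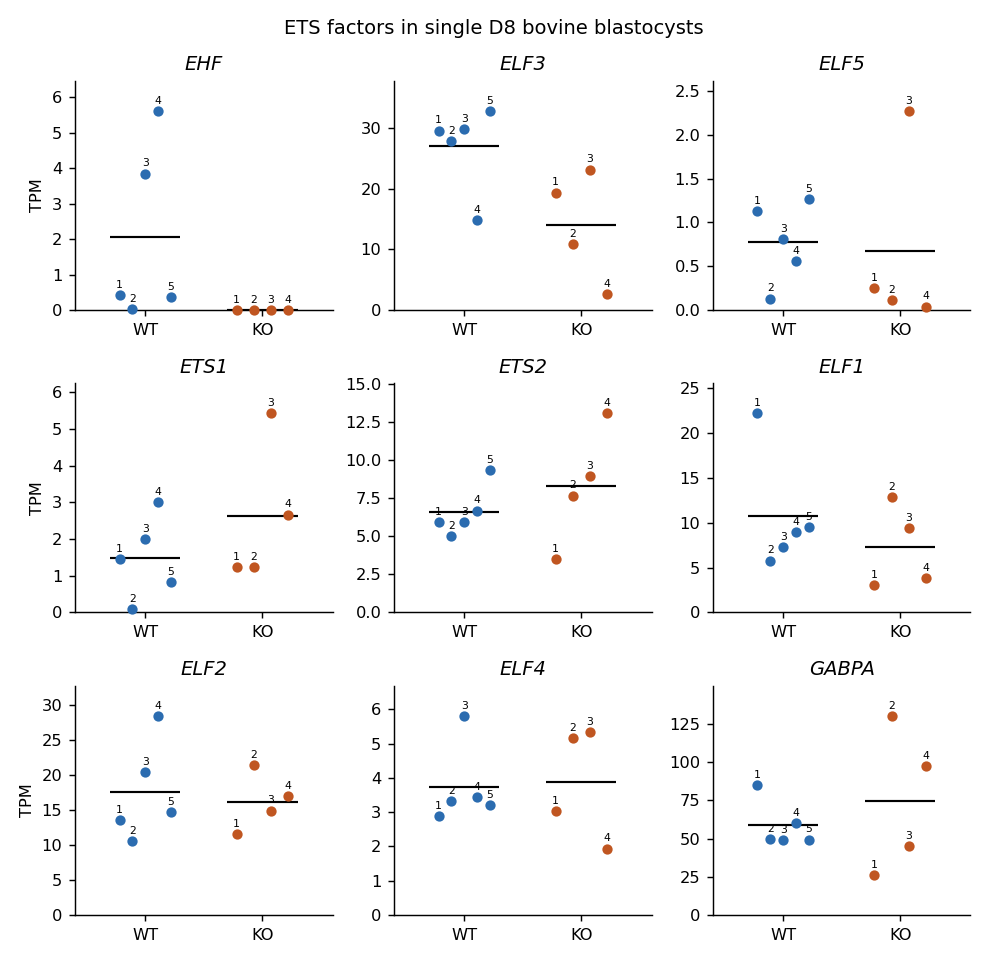
TPM of the 9 ETS factors in WT (blue) and *TEAD4* KO (orange) blastocysts on a linear axis for each gene. Each point is 1 library with its number, and the horizontal line is the mean of the group. *EHF* was between 0.0227 and 5.61 TPM in WT and at 0 in KO, and the values of the other members overlapped between genotypes.

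Of the 18549 genes above 0 TPM in at least 1 library, 22 (0.119%) were above 0 in every WT and at 0 in every KO library, and 3 (0.0162%) showed the mirror image. These counts are not directly comparable, since the pattern of *EHF* asks for 0 in 4 libraries and the mirror image for 0 in 5. KO libraries also had fewer genes above 0, on average 15119 against 16011 in WT. Most of the 22 genes were low, with *EHF* the second highest by its WT mean of 2.05 ± 2.53 TPM (SD, n = 5). Above it was ENSBTAG00000051867, which has no symbol in the table, at a WT mean of 4.05 TPM. The next by WT mean were ENSBTAG00000010072 at 1.90 TPM, *TSPAN19* at 1.54 TPM and *LRRC43* at 1.09 TPM, and the lowest was *ARHGAP25* at 0.034 TPM. The genes of the mirror image were *TRBV24-1*, *KCNA2* and *TBXT*, the transcription factor brachyury, with KO means of 6.97, 0.343 and 0.287 TPM. The genes of these counts were named after their values were seen.

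A WT mean within 2-fold of that of *EHF* and a value above 0 in every WT library were found for 2812 genes. Of these, 2554 were above 0 in every KO library, 258 were at 0 in at least 1 and 5 (0.178%) were at 0 in all, *EHF* included. Single KO libraries were at 0 for 63 (TE_2) to 103 (TE_1) of these genes. Whatever their level in the other genotype, 6.73% of the 18549 genes were at 0 in every KO library and 2.26% were at 0 in every WT library. Here too the KO share asks for 0 in 4 libraries and the WT share for 0 in 5. These counts describe the pattern that chose *EHF* and are no test of it.

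**Figure D2:**
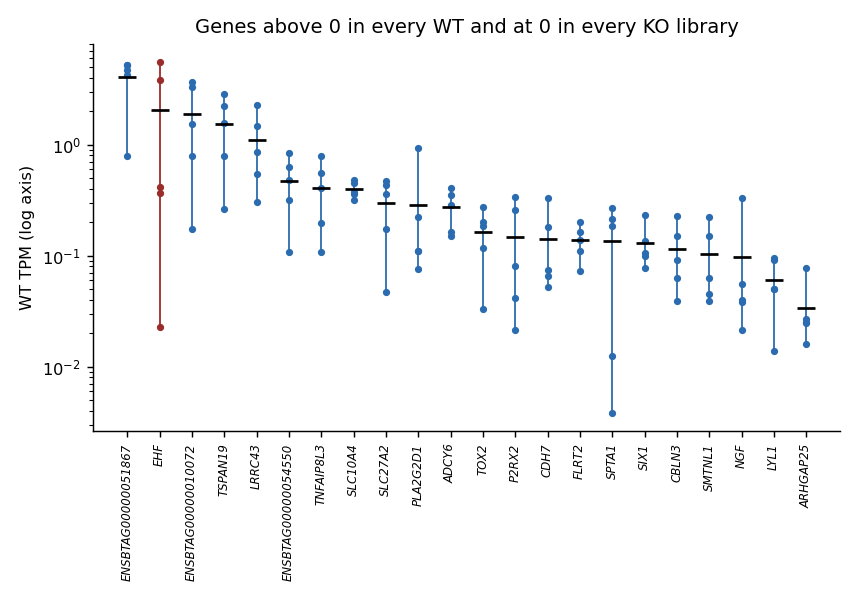
The 22 genes above 0 TPM in every WT and at 0 TPM in every KO library, ordered by WT mean. Points are the 5 WT libraries on a log axis of TPM, vertical lines span their range and black dashes are means. *EHF* (red) has the second highest mean, 2.05 TPM, and spans 0.0227 to 5.61 TPM.

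WT_3 and WT_4, the WT embryos with the most *EHF*, had lower sums of TE markers, which are mostly keratin transcripts, and higher sums of ICM markers, which are mostly *POU5F1*. Among WT_1, WT_2 and WT_5 the TE sums did not fall with more *EHF*. There WT_2 had the least *EHF* and the lowest TE sum, and WT_1 the most *EHF* and the highest TE sum, 19918 TPM. The TE markers (*CDX2*, *GATA2*, *GATA3*, *TFAP2A*, *TFAP2C*, *KRT8*, *KRT18* and *KRT19*) summed to 8164 TPM in WT_3 and 4462 TPM in WT_4, and to 15375 TPM or more in WT_1, WT_2 and WT_5. The ICM markers (*SOX2*, *NANOG*, *POU5F1*, *LIN28B* and *SALL4*) summed to 1547 TPM in WT_3 and 2072 TPM in WT_4, and to 1224 TPM or less in the other WT libraries. Gene by gene, 6 of the 8 TE markers were lower in both WT_3 and WT_4 than in the other WT libraries, and 3 of the 5 ICM markers were higher in both. The exceptions were *GATA3* (33.9 TPM in WT_3 and 32.2 TPM in WT_2), *TFAP2C* (134 and 119 TPM in WT_3 and WT_4, above 75.6 TPM in WT_5 and 97.3 TPM in WT_2), *NANOG* (53.4 TPM in WT_3 and 90.2 TPM in WT_5) and *SALL4* (14.5 TPM in both, below 20.0 TPM in WT_5). In the KO libraries, with *EHF* at 0, the TE markers summed to between 6829 and 12943 TPM, inside the range of the WT libraries. Their ICM markers summed to between 1380 and 2200 TPM, and TE_2 alone was above the highest WT library. The paper states that *POU5F1* and *CDX2* do not exclude each other between ICM and TE in bovine embryos. Sums made up mostly of *POU5F1* therefore do not measure the ICM. By mean log2(TPM + 1), *SOX2*, *NANOG* and *LIN28B* were lower in KO and *POU5F1* and *SALL4* higher, all with overlapping values. The paper counted fewer SOX2-positive cells in KO than in WT blastocysts. The part of the TE and ICM markers in the level of *EHF* was not tested.

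**Figure D3:**
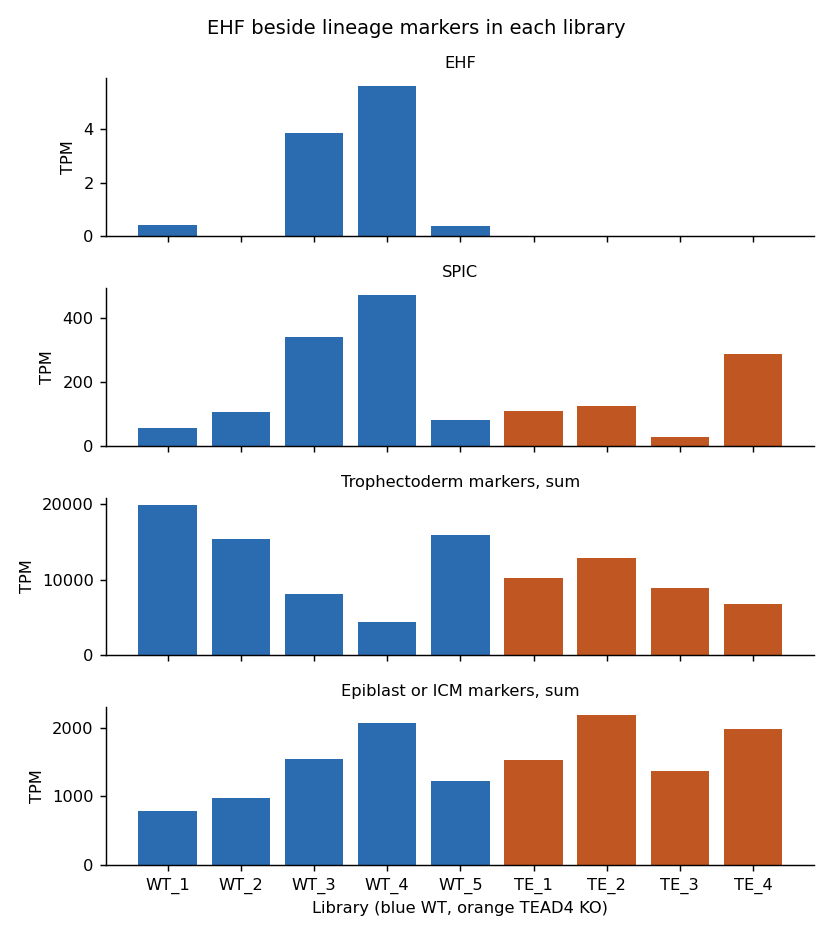
TPM in each library of *EHF*, of the ETS factor *SPIC*, of 8 TE markers summed and of 5 ICM markers summed, with WT in blue and KO in orange. In WT_3 and WT_4, *EHF* and *SPIC* were highest and the TE markers lowest among WT libraries, while the KO libraries at 0 for *EHF* had TE sums of 6829 to 12943 TPM.

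Likeness to *EHF* was measured as the root mean square difference, over the 9 libraries, of values divided by the highest value of each gene, among 13791 genes reaching 1 TPM. The 5 most similar genes were ENSBTAG00000033007 (0.031), ENSBTAG00000039237 (0.033), *RETNLB* (0.047), *RADX* (0.055) and *ISG15* (0.063). Each of them was highest in WT_4 and next highest in WT_3. *RADX*, which encodes a single-stranded DNA-binding protein of replication forks, was at 7.36 and 10.1 TPM in these libraries and at 1.27 TPM or less in the other 7, and it was above 0 in every KO library. The secreted protein gene *RETNLB* (1.45 and 2.49 TPM) and the ubiquitin-like interferon response gene *ISG15* (0.856 and 1.01 TPM) were listed at 0 in all other libraries, WT ones included. None of the other 8 members was among the most similar genes, the closest, *ETS1*, being at rank 1449.

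The RefSeq annotation places *EHF* between *ELF5*, another member, and *APIP*, an enzyme gene of methionine salvage. No coordinates are given, since the build behind the table is not stated. *APIP* was at 194, 128, 135, 253 and 178 TPM in the WT embryos, against 109, 110, 108 and 118 TPM in the KO embryos. The KO embryos all lay below the lowest WT embryo, as was found for 1.23% of the genes tested. The difference was −0.62 on the log2(TPM + 1) scale (standard error 0.23, unadjusted p = 0.0198, adjusted p = 0.743 from limma). *CD44*, the hyaluronan receptor gene 3 positions from *EHF*, was at 0.118 TPM or less in the WT embryos against 0.205, 0.275, 2.32 and 0.320 TPM in the KO embryos. The KO embryos all lay above the highest WT embryo, against 0.801% of the genes tested (difference 0.62, standard error 0.27, adjusted p = 0.813 from limma, and a difference of 2.02 with a pseudocount of 0.1 TPM). *CD44* passed the threshold for testing only through its KO values, since its median over the WT embryos was 0.0356 TPM. Its difference, p-value and share are therefore a description of the pattern and no test of it. The other neighbours, *ABTB2*, the catalase gene *CAT* and the pyruvate dehydrogenase component *PDHX*, had overlapping values, with differences of −0.63, 0.056 and −0.27.

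**Figure D4:**
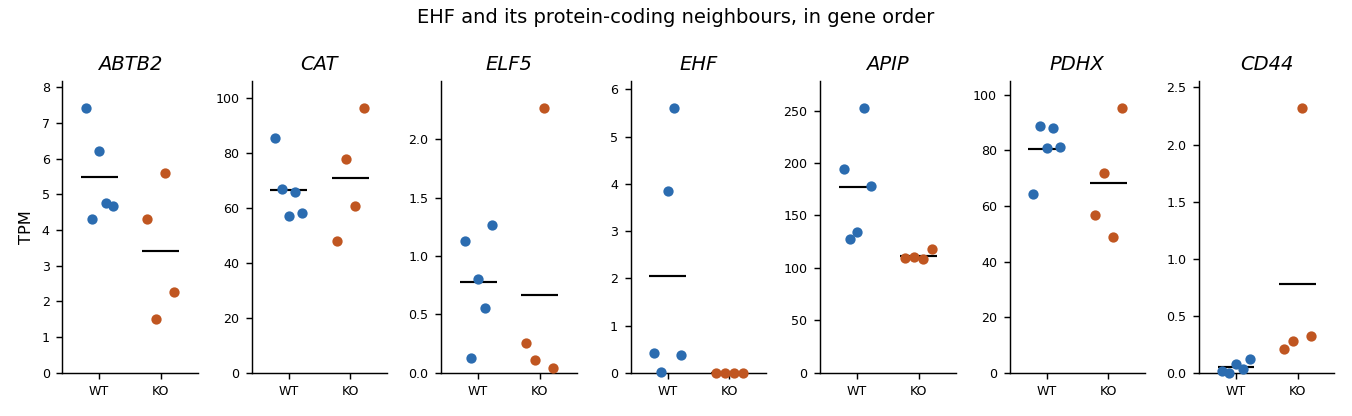
TPM of *EHF* and of the 3 protein-coding genes on each side of it in the RefSeq order, on a linear axis for each gene. Points are libraries (WT blue, KO orange) and lines are group means. *APIP* was at 128 TPM or more in WT and 118 TPM or less in KO, *CD44* was higher in every KO than in every WT library, and *ABTB2*, *CAT*, *ELF5* and *PDHX* overlapped.

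The 8 members other than *EHF* passed the threshold for testing and were compared by limma, which fits a linear model of log2(TPM + 1) to each of the 14599 genes with a median above 0.1 TPM. None had an adjusted p-value (Benjamini-Hochberg, all genes) under 0.05, which 3 genes (0.0205%) reached in the whole table. At an unadjusted p-value under 0.05, which 5.9% of the genes tested reached, there was 1, *ELF3*, and none by an exact permutation test. The values of WT and KO overlapped for all 8, and 2.03% of the genes tested had no overlap. On average 4 of the 8 members were lower in KO, against 55.8% of the genes tested, and their median difference was −0.028, against −0.046 over all genes.

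*ELF3*, another factor of epithelia, was the second most abundant member by its median over all libraries and had a lower mean in KO embryos. It was at 29.6, 27.8, 29.8, 14.8 and 32.8 TPM in the WT embryos, against 19.4, 10.9, 23.2 and 2.62 TPM in the KO embryos. TE_2 and TE_4 were below every WT embryo, and TE_1 and TE_3 overlapped only with WT_4. The mean was 27.0 ± 7.02 TPM across WT embryos (SD, n = 5) and 14.0 ± 9.16 TPM across KO embryos (SD, n = 4). The difference was −1.17 (standard error 0.50, 95% interval −2.26 to −0.074, unadjusted p = 0.0383, adjusted p = 0.813 from limma). The exact two-sided permutation test gave p = 0.0952. The difference was −0.59 without TE_4 and −1.50 without TE_3. Across WT embryos *ELF3* did not follow *EHF*, since WT_4, with the most *EHF*, had the least *ELF3*, and the ratio of *ELF3* to *EHF* went from 2.64 to 1226.

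WT_4 and TE_4, the lowest libraries for *ELF3* within their genotypes, also had low levels of other epithelial genes. Among 16 epithelial genes, WT_4 was the lowest of the 9 libraries for 8 and TE_4 for 7, and WT_4 was the lowest WT library for 15. The part of this in the difference of *ELF3* was not tested.

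*ELF5*, the trophoblast factor that lies beside *EHF*, was low in most embryos. It was at 1.13, 0.130, 0.805, 0.558 and 1.27 TPM in the WT embryos, against 0.253, 0.111, 2.27 and 0.0388 TPM in the KO embryos. TE_3 was above every WT embryo, TE_2 and TE_4 were below, and TE_1 was inside the range of WT. The difference was −0.23 (standard error 0.34, 95% interval −0.96 to 0.51, adjusted p = 0.982 from limma). It was −0.61 without TE_3, −0.091 without TE_2 and −0.058 without TE_4.

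*ETS1* and *ETS2*, the ERK-responsive members, differed in level and in how much they varied. *ETS1* was at 1.44, 0.1001, 2.01, 3.01 and 0.818 TPM in the WT embryos, against 1.22, 1.23, 5.42 and 2.66 TPM in the KO embryos. TE_3 was above every WT embryo and WT_2 was far below all other embryos, so that *ETS1* spanned 54.2-fold over the 9 libraries. Its difference was 0.54 (standard error 0.43, 95% interval −0.39 to 1.47, adjusted p = 0.939 from limma), and 0.22 without TE_3. *ETS2* was at 5.91, 5.00, 5.95, 6.68 and 9.35 TPM in the WT embryos, against 3.50, 7.67, 8.92 and 13.1 TPM in the KO embryos, a span of 3.73-fold. TE_1 was below and TE_4 above every WT embryo. The difference was 0.21 (standard error 0.36, 95% interval −0.59 to 1.00, adjusted p = 0.982 from limma), and −0.031 without TE_4.

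*ELF1*, *ELF2* and *ELF4* were found in every embryo. *ELF1* was between 5.78 and 9.49 TPM in WT_2 to WT_5, reached 22.2 TPM in WT_1, and measured 3.02, 12.9, 9.36 and 3.83 TPM in the KO embryos. TE_1 and TE_4 were below every WT embryo (difference −0.55, standard error 0.46, 95% interval −1.56 to 0.46, adjusted p = 0.953 from limma, and −0.26 without TE_1). *ELF2* varied least among the members, 2.70-fold over the 9 libraries, from 10.5 to 28.5 TPM in WT and from 11.5 to 21.4 TPM in KO. Each KO embryo was inside the range of the WT embryos (difference −0.059, standard error 0.32, 95% interval −0.77 to 0.65). *ELF4* ranged from 2.88 to 5.81 TPM in WT and from 1.93 to 5.35 TPM in KO, and TE_4 alone was below every WT embryo (difference 0.0028, standard error 0.33, 95% interval −0.73 to 0.73). The differences of *ELF2* and *ELF4* were positive or negative depending on which embryo was left out.

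*GABPA*, which acts on nuclear genes of the mitochondrion, was the most abundant member in every library. It was at 84.9, 49.5, 48.8, 60.2 and 49.3 TPM in the WT embryos, against 26.3, 130, 45.0 and 97.3 TPM in the KO embryos. The KO embryos lay on both sides of the WT embryos, with TE_2 and TE_4 above and TE_1 and TE_3 below all of them. The difference was 0.12 (standard error 0.41, 95% interval −0.78 to 1.03, adjusted p = 0.991 from limma), −0.23 without TE_2, −0.086 without TE_4 and 0.53 without TE_1. Its partner *GABPB1* was at 16.7 ± 4.66 TPM across WT embryos (SD, n = 5) and 14.3 ± 3.36 TPM across KO embryos (SD, n = 4), and *GABPB2* at 1.13 ± 0.747 and 0.951 ± 0.659 TPM.

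With the pseudocount of 1 TPM, the interval of the difference stayed within 1 log2 unit on either side for *ELF2*, *ELF4*, *ELF5* and *ETS2*, and reached beyond it for *ELF3*, *ETS1*, *ELF1* and *GABPA*. Differences on the log2(TPM + 1) scale understate those of low genes. With a pseudocount of 0.1 TPM the difference of *ELF5* was −0.91 (standard error 0.84), so that its interval also reached beyond 1 log2 unit, and that of *ETS1* was 1.01 (standard error 0.78).

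By the median over the 9 libraries, the order of the levels was *GABPA*, *ELF3*, *ELF2*, *ELF1*, *ETS2*, *ELF4*, *ETS1*, *ELF5* and *EHF*. Of the 8 neighbouring pairs in this order, 5 had a mean difference in log2(TPM + 1) above its spread (SD) over the libraries. *ELF3* and *ELF2*, *ELF1* and *ETS2*, and *ELF5* and *EHF* did not. Within KO libraries alone the median of *ELF2* (15.97 TPM) was above that of *ELF3* (15.13 TPM), and that of *ETS2* (8.29 TPM) was above that of *ELF1* (6.596 TPM). *GABPA* was above *ELF3* and *ETS2* above *ELF4* in 9 of 9 libraries. *EHF* was the lowest member in WT_1, WT_2, WT_5 and the 4 KO libraries but was at rank 7 in WT_3 and rank 6 in WT_4. The 9 members summed to between 102 and 162 TPM in WT and between 68.2 and 190 TPM in KO libraries, and *GABPA* made up 38.5% to 70.3% of this sum.

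Of the 28 genes of the ETS family looked up, 27 were listed, and *ETV7* was not. Among the 18 that are not described above, *ERG* was at 0 in every library and 13 were tested. By limma, none of these 13 had an adjusted p-value under 0.05, and 1 had an unadjusted p-value under 0.05. That gene was *SPDEF*, a factor of secretory epithelia such as prostate and goblet cells. *SPDEF* was at 0, 0.0654, 0.170, 0.340 and 0.367 TPM in the WT embryos, against 0.704, 1.41, 1.55 and 2.84 TPM in the KO embryos. The KO embryos all lay above the highest WT embryo, the opposite of *EHF*. The difference was 1.09 (standard error 0.23, 95% interval 0.58 to 1.604, unadjusted p = 0.000553, adjusted p = 0.323 from limma), and it did not pass the adjustment. With a pseudocount of 0.1 TPM the *SPDEF* difference was 2.66. By the exact two-sided permutation test p was 0.0159 for *SPDEF*, the smallest possible, and 0.0476 for *ELK3* (adjusted p = 0.846 from limma). *ELK3* passed the threshold for testing only through its WT values, with a median of 0.353 TPM in WT and 0 in KO. Its p-values are therefore a description of the pattern and no test of it. Zeros in KO libraries were not particular to *EHF* in the family. *ELK3* and *ETV1* were above 0 in every WT and at 0 in 3 KO libraries. *ETV3L* and *SPIB* were at 0 in every KO library, as were 6.73% of the 18549 genes above 0 in at least 1 library. Unlike *EHF*, they were also at 0 in WT libraries, 3 for *ETV3L* and 2 for *SPIB*. In the other WT libraries they were at 0.381 TPM or less. Of the family, 22 to 26 genes were above 0 in WT libraries and 20 to 22 in KO libraries. Over all genes listed, 14807 to 16678 were above 0 in WT libraries and 14776 to 15375 in KO libraries.

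By its mean, the most abundant ETS gene of the blastocysts was *SPIC*, a factor known for macrophages of the spleen, with *ELK1* and *ETV4* next among these 18 genes. *SPIC* was at 54.5, 106, 339, 470 and 79.4 TPM in the WT embryos, against 107, 124, 26.0 and 286 TPM in the KO embryos. It was highest in WT_3 and WT_4, as *EHF* was, but also high in TE_4, where *EHF* was at 0. The difference was −0.57 (standard error 0.73, adjusted p = 0.982 from limma), and 0.064 without TE_3. *ELK1*, an ERK-responsive factor of serum response elements, was at 11.2 ± 2.72 TPM across WT embryos (SD, n = 5) and 6.81 ± 3.43 TPM across KO embryos (SD, n = 4) (difference −0.74, standard error 0.38, adjusted p = 0.862 from limma, and −0.41 without TE_1). *ETV4*, an ETS factor downstream of FGF signals, was at 8.19 ± 8.87 and 9.80 ± 10.3 TPM, with 23.9 TPM in WT_1 and 24.9 TPM in TE_3 and 7.80 TPM or less elsewhere.

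**Figure D5:**
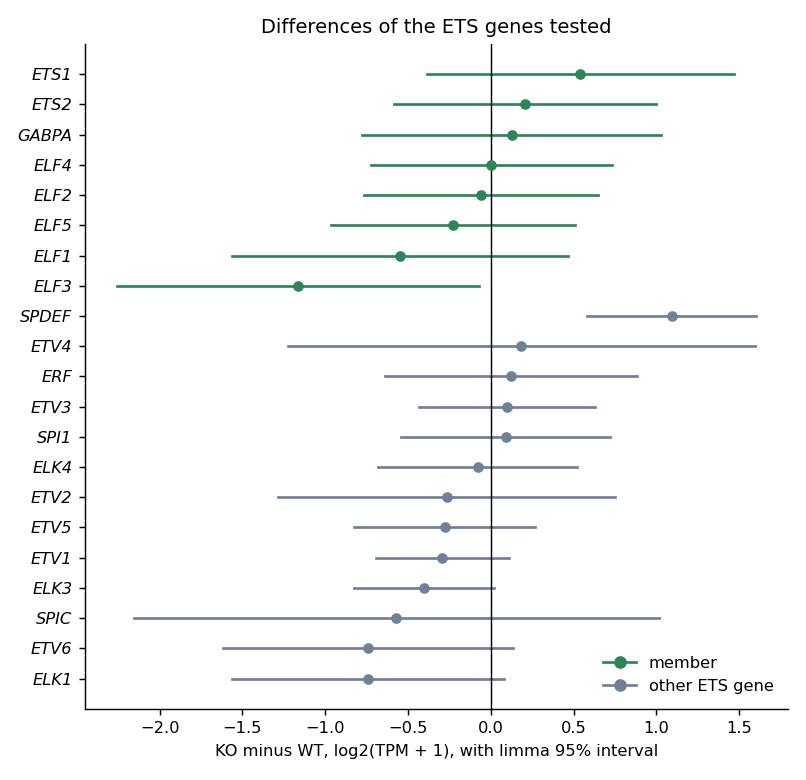
Differences between KO and WT on the log2(TPM + 1) scale for the 8 members tested (green) and 13 other ETS genes (grey), with 95% intervals from limma. *ELF3* (−1.17) and *SPDEF* (1.09) lie farthest from 0, and only their intervals leave out 0.

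The other lists hold genes that act with, upstream of or beside the ETS factors. Together with the rest of the family they have 79 tested genes, of which none had an adjusted p-value under 0.05 and 5 had an unadjusted one under 0.05. These 5, *SPDEF*, *RUNX1*, *TFAP2A*, *ESRRB* and *DUSP6*, are 6.33% of the 79, against 5.9% of all genes. The values of WT and KO did not overlap for 3 of the 79 genes (3.80%), *SPDEF*, *FGFR2* and *DUSP6*, against 2.03% of all genes tested.

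Among 10 partners and regulators of ETS factors, all tested, the median difference was −0.23. Among the most abundant were the ubiquitin ligase *COP1*, at 48.5 ± 11.0 TPM across WT embryos (SD, n = 5) and 31.6 ± 17.5 TPM across KO embryos (SD, n = 4), and *CBFB*, which encodes the shared subunit of RUNX factors, at 35.9 ± 9.67 and 35.0 ± 18.6 TPM. *RUNX1*, a DNA-binding partner of *ETS1*, was at 0.0948, 0.207, 0.562, 0.582 and 0.368 TPM in the WT embryos, against 2.50, 0.254, 2.54 and 1.42 TPM in the KO embryos. All KO embryos but TE_2 were above the WT embryos (difference 0.88, standard error 0.30, unadjusted p = 0.0126, adjusted p = 0.678 from limma, and a difference of 1.73 with a pseudocount of 0.1 TPM).

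Of 13 epithelial transcription factors, 12 were tested, with a median difference of −0.19. *KLF5* was at 178 ± 25.0 TPM across WT embryos (SD, n = 5) and 167 ± 78.7 TPM across KO embryos (SD, n = 4), and *TFAP2C* at 116 ± 31.5 and 135 ± 65.5 TPM. *TFAP2A*, an AP-2 factor of surface ectoderm and trophoblast, was at 9.84, 12.6, 2.85, 5.55 and 10.6 TPM in the WT embryos, against 5.21, 3.32, 2.46 and 0.321 TPM in the KO embryos (difference −1.34, standard error 0.50, unadjusted p = 0.0206, adjusted p = 0.745 from limma). The KO embryos overlapped only with WT_3, and the difference was −0.90 without TE_4. The 16 epithelial genes had a median difference of −0.22. The keratins led them, *KRT8* with 7537 ± 3719.8 TPM across WT embryos (SD, n = 5) and 5646 ± 2027 TPM across KO embryos (SD, n = 4), *KRT18* with 3721 ± 1859 and 2849 ± 1098 TPM, and *KRT19* with 1270 ± 719 and 959 ± 826 TPM.

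For the nuclear genes of the mitochondrion on which *GABPA* is known to act, 15 of 16 were listed and tested, and the median difference was −0.019. The most abundant were 3 subunits of cytochrome c oxidase. *COX6C* averaged 2995 ± 1174 TPM in WT (SD, n = 5) and 2929 ± 1020.0 TPM in KO (SD, n = 4), *COX7A2* 2485 ± 536 and 2749 ± 560.1 TPM, and *COX6A1* 1574 ± 348 and 1498 ± 504 TPM.

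The genes of the mouse trophoblast stem cell circuit in which *ELF5* acts had 7 of 8 members tested, with a median difference of −0.20. *TFAP2C*, given above, *ESRRB* and *TEAD4* were the most abundant of them. *ESRRB*, an orphan nuclear receptor, was at 54.2 ± 13.4 TPM across WT embryos (SD, n = 5) and 87.6 ± 20.6 TPM across KO embryos (SD, n = 4) (difference 0.68, standard error 0.26, unadjusted p = 0.0224, adjusted p = 0.764 from limma). *FGFR2*, an FGF receptor, was at 1.67 to 2.95 TPM in WT and at 0.786 to 1.63 TPM in KO, without overlap (difference −0.37, standard error 0.24, adjusted p = 0.920 from limma). *EOMES*, a T-box factor of mouse trophoblast, was at 0 in all KO and 2 WT libraries and at 0.228 TPM or less in the other 3.

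Of the 9 genes of ERK feedback, which are regulated by the same kinases as *ETS1* and *ETS2*, the median difference was −0.28. *DUSP6*, a phosphatase of ERK, was at 24.8, 24.7, 20.4, 10.3 and 18.9 TPM in the WT embryos, against 4.54, 4.16, 3.91 and 3.89 TPM in the KO embryos, and every KO embryo lay below the WT embryos. *SPRY2*, an inhibitor of the same pathway, was at 23.0 ± 18.9 TPM across WT embryos (SD, n = 5) and 8.67 ± 4.70 TPM across KO embryos (SD, n = 4). The difference of *DUSP6* was −1.97 (standard error 0.31, adjusted p = 0.0702 from limma). The adjusted p over the alternatives ranged from 0.0436 to 0.256 (limma, Benjamini-Hochberg), under 0.05 in 3 of 17 (a pseudocount of 0.1 TPM, a filter at a median of 1 TPM and eBayes without the trend), at 0.118 with no filter and at 0.0664 to 0.256 when an embryo was left out.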

How the data were processed

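The authors made 1 RNA-seq library from each of 5 WT and 4 *TEAD4* KO D8 bovine blastocysts and deposited the values as TPM. The submitters' processing notes name FastQC, fastp and kallisto, without versions. The annotation, the build and how genes were summed from transcripts are not given in the sources used here. Labels and paper describe different library kits. Columns were assigned to genotypes by their names, and all 9 were used. The study's material names a list of changed genes made without TE_4, so its own test may have left that library out, which the labels do not state.

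Genes with a median above 0.1 TPM were tested with limma 3.58.1 (R 4.3.3, eBayes with trend) on log2(TPM + 1), two-sided, with Benjamini-Hochberg adjustment over all 14599 genes. Differences are KO minus WT. The sources used here do not tie the embryos to rounds of fertilization, so p-values measure only the spread between these embryos. In data simulated for this comparison on 14599 genes, 60 of 66 genes changed by 3 log2 units passed an adjusted p of 0.05, as did 48 of 67 changed by 2 and 6 of 67 changed by 1, with 8 false calls. The changed genes were drawn only from those with a mean log2(TPM + 1) above 2, with normal noise on that scale. The shares recovered therefore do not cover lower genes such as *ELF5*, *ETS1*, *SPDEF*, *RUNX1*, *FGFR2* and *CD44*. Exact permutation tests used scipy 1.17.1. Alternatives were other pseudocounts, filters, scalings and eBayes settings and leaving out each library.

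The members, lists and tests were chosen with earlier results of these data known. Genes named were the members, the 3 most abundant genes of each list, list genes without overlap between genotypes, the 5 genes most similar to *EHF* and the 3 neighbours on each side. *RUNX1*, *TFAP2A*, *GABPB1*, *GABPB2*, *EOMES*, *ELK3*, *ETV1*, *ETV3L* and *SPIB* were named after their values were seen. Some genes that this rule names are not reported here. RefSeq symbols (ARS-UCD2.0) were matched by 17805 gene names, among them the 9 members. No sequences were used here.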

Additional observations from a re-analysis of the deposited data

Results flagged for a closer look

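In 43 groups of 4 or 5 embryos, the highest or lowest embryo was checked for a gap from the others beyond Dixon's 95% critical value, which chance exceeds in about 1 of 20 groups, and 7 groups had such an embryo. Among the members, *ELF3* was low in WT_4 (14.8 TPM), *ELF1* was high in WT_1 (22.2 TPM), *ELF4* was high in WT_3 (5.81 TPM) and *ELF5* was high in TE_3 (2.27 TPM). Among other genes, *ETV4* was high in WT_1 (23.9 TPM), *FGFR2* in WT_5 (2.95 TPM) and *CD44* in TE_3 (2.32 TPM). *ELF5* and *CD44*, which lie on either side of *EHF*, were both high in TE_3, but *EHF* was at 0 in every KO embryo. *APIP* and *PDHX*, which lie between *EHF* and *CD44*, were lowest of the 9 libraries in TE_3, at 108 and 48.8 TPM. The other neighbours, *ABTB2* and *CAT*, were inside the range of the WT embryos there.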

How the results depend on the processing

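No member tested had an adjusted p under 0.05 in any of the 17 alternative fits with limma. The difference of *ELF3* was negative in all of them, between −1.50 and −0.59, with an unadjusted p under 0.05 in 8. *ELF5* and *ELF1* stayed negative and *ETS1* positive in every fit that held them, and *ELF5* was not tested with a median above 1 TPM. The difference of *ELF2* became 0.015 with quantile normalization and 0.098 with array weights, and was −0.21 to 0.13 when embryos were left out. That of *ELF4* became −0.013 with a pseudocount of 0.1 TPM and was −0.15 to 0.22 without single embryos. Leaving out embryos gave −0.031 to 0.52 for *ETS2*, −0.23 to 0.53 for *GABPA*, −1.07 to 0.064 for *SPIC* and −0.38 to 0.64 for *ETV4*. Among the other listed genes, the number past the threshold was 1 (*DUSP6*) with a pseudocount of 0.1 TPM, with a median above 1 TPM and without the trend, and 0 in all other fits. The number of genes with the pattern of *EHF* was 69 when 0.1 TPM or less counted as not detected (then in 4 WT embryos or more), and 29 (without WT_3) to 65 (without WT_1) when an embryo was left out, with 35 without WT_2, 34 without WT_4 and 50 to 58 without a KO embryo. Of the neighbouring pairs in the order of levels, 3 differed beyond their spread within WT and 3 within KO libraries, and 3 (without TE_1 or TE_2) to 5 when an embryo was left out. The difference in genes above 0 TPM was −1193 to −725 without single embryos. Requiring *EHF*-like genes to be above 0 in every WT library is the count given, since *EHF* was. No paired analysis was possible because the labels number the embryos without repeats. The unknown depth limits values near 0.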
